A study of Mus musculus with 12 samples.

Results

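Collagen chains are the polypeptides that assemble into collagen molecules, and their genes carry names of the form Col1a1. Every row of the deposited table whose gene name had that form was taken, which gave 44 of 44345 genes. They fell into 11 fibrillar chains, 9 chains of basement membranes and the zone beside them, 9 fibril-associated chains with interrupted triple helices (FACIT), 7 chains of beaded filaments and their relatives, 3 short-chain network formers, and 5 transmembrane or other chains. The tissue was dorsal root ganglion (DRG, the site of the somata of sensory neurons), levels L4 to L6, from C57BL/6 mice 6 to 8 weeks old. Mice were gavaged daily for 10 days with indole-3-propionic acid (IPA, a bacterial product of tryptophan) at 20 mg/kg in PBS, or with PBS alone as vehicle. In the uninjured groups, vehicle and IPA, ganglia were taken with the sciatic nerve intact. In the groups injured vehicle and injured IPA, the sciatic nerve was crushed after the 10 days of gavage and ganglia were taken 3 days later. Injured IPA mice were given IPA on those 3 days as well, so the injured and uninjured IPA groups also differ in the length of dosing, and the labels do not make clear whether vehicle gavage went on after the crush. Each group had 3 libraries, and each library was a pool of ganglia from 2 mice.

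Collagen chains are built of repeats in which glycine recurs at a fixed spacing, and chains wind around each other into a triple helix. Fibrillar chains form the tensile fibrils of the epineurium, perineurium and endoneurium, FACIT chains lie along those fibrils, and type IV chains form the sheet under endothelial cells, Schwann cells, perineurial cells and satellite glia. Chains are hydroxylated and folded in the endoplasmic reticulum, and fibrillar procollagens are trimmed by extracellular proteases and cross-linked by lysyl oxidases. In nerve and ganglia, fibroblasts, Schwann cells, vessel walls and perineurial cells are known sources.

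Upstream sequences were found in a RefSeq promoter table (GRCm38.p6) for 35 of the 44 genes, in 38 windows. The 250 bases before the start are given for the 3 chains with the largest rises after crush under vehicle, Col7a1, Col6a5 and Col5a3. They are also given for the one with the largest fall, Col25a1. These chains were picked by the size of their change and do not stand for the others that passed. Capitals mark matches, on either strand, to the GC box GGGCGG (reverse complement CCGCCC) and the CCAAT box CCAAT (reverse complement ATTGG). The windows lie at chr9:20815068-20815317 (minus strand, Col5a3), chr9:108953336-108953585 (plus, Col7a1), chr9:105960644-105960893 (minus, Col6a5) and chr3:130180595-130180844 (plus, Col25a1). The Col25a1 start in RefSeq lies inside the span that GENCODE M21 gives the gene.
Col5a3: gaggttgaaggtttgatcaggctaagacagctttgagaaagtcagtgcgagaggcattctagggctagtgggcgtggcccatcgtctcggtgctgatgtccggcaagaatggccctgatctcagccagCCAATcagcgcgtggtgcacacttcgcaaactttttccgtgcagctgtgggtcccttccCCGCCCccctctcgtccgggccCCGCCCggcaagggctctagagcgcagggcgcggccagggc
Col7a1: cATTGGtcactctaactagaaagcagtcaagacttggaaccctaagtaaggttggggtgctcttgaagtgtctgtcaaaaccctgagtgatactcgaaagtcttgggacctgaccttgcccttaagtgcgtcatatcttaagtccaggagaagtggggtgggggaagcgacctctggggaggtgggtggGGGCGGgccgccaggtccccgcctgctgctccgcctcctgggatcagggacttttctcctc
Col6a5: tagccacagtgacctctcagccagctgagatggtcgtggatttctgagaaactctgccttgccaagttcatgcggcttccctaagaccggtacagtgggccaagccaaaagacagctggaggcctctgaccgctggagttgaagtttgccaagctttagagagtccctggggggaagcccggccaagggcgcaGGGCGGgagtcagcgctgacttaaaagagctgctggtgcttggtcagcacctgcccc
Col25a1: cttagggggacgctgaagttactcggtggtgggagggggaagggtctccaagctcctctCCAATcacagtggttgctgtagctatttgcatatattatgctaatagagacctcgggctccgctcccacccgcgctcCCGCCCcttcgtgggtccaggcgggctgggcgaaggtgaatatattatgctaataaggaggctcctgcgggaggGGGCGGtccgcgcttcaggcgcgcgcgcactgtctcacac

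The GC box occurred in 22 of 38 collagen windows (57.9%), against 32.7% of all 32851 windows in the table. The CCAAT box was found in 13 of 38 against 33.9%, and the TATA box letters TATAAA in 5 of 38 against 12.4%. The AP-1 letters TGANTCA, which Jun and Fos family factors are known to bind, were found in 1 of 38 collagen windows against 6.75% of all windows. The CRE letters TGACGTCA, bound by CREB and ATF factors, were found in 0 of 38 against 1.55%. The pairs of type IV genes are transcribed away from each other. Starts of Col4a1 and Col4a2 overlap by 22 bases at chr8:11312805-11312826, shown here on the plus strand with the GC box in capitals because this stretch belongs to both genes.
Col4a1 and Col4a2: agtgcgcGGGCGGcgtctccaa
Col4a4 and Col4a3 start 71 bases apart, and Col4a6 and Col4a5 start 1308 bases apart. These letter matches describe the windows and were not tested for binding.

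Values are the deposited ones, which behave as CPM (counts scaled to library size) with no gene length divided out. The 12 libraries held 40938034 to 62501969 recovered reads, so a single read adds 0.0130 to 0.0199 to a value. Collagen chains took 0.131% to 0.200% of the summed value of a library. Markers of sensory neurons were high in all groups, with a summed value of 11364 to 13466 over 8 genes. Some libraries differed more from their replicates than others did. The chi-square statistic of injured vehicle replicate 1 against its own replicates, divided by degrees of freedom, was 26.3 and 24.1, where theirs was 5.38. Injured IPA replicate 3 followed with 22.4 and 11.2, where its replicates had 6.74, and then vehicle replicate 3 with 16.2 and 10.03, where its replicates had 4.55. Injured vehicle replicate 1 also had the steepest fall of level with transcript GC content, -0.160 on the log2 scale per 10% GC, where the other libraries lay between -0.122 and 0.124. Values without it stand beside the chains it moved most. Of the 44 chain genes, 18 overlap an annotated gene on the opposite strand. Whether counting used strand is not given in the sources used here, so reads of such pairs, Col5a3, Col12a1, Col15a1, Col18a1 and Col6a4 among them, may be shared.

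Per kilobase of the longest transcript, Col1a2, a chain of type I collagen, had the highest mean level over the 12 libraries, 43.6. Its partner Col1a1 followed at 24.4, then the type V chain Col5a3 at 22.2, the type III chain Col3a1 at 19.5 and the basement membrane chain Col4a1 at 16.5. Next were Col28a1 at 14.7, a chain known for its expression in mouse DRG and peripheral nerve, Col4a2 at 10.8, Col16a1 at 10.1 and Col15a1 at 9.27. By group, Col5a3 stood at 12.02 per kilobase in vehicle and 15.6 in IPA libraries, below Col3a1 (17.4 and 20.1) in both. In injured vehicle and injured IPA libraries it stood at 30.6 in both, above Col3a1 (21.8 and 18.4), although injured vehicle replicate 1 lay far below the other replicates. At the low end, the 4 chains that did not pass the filter described next averaged 0.0139 to 0.0410 per kilobase. Fibrillar chains held 51.7% to 59.8% of the summed collagen value across libraries, and basement membrane chains 18.8% to 22.3%.

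A change is given as the difference of log2(value + 0.5), with its standard error (SE) from a limma fit over the 15603 genes that reached 0.5 in at least 3 libraries. A chain passed at an adjusted p under 0.05. Of the 44 chains, 40 were tested. Because of the pseudocount, changes of low genes come out too small. Fewer cells of a type and less RNA per cell cannot be told apart in bulk tissue, here or in any comparison that follows.

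The first comparison asked what sciatic crush changed in ganglia of vehicle-treated mice. Collagen chains did not move as 1 block: 12 of 40 passed as higher (30.0%, against a background of 23.6% of all tested genes) and 3 as lower (7.5%, background 24.4%). The median change was 0.09, against -0.005 over all tested genes. The rises were largest in Col7a1, Col6a5, Col5a3 and Col6a4, the last of which passed the filter only through its injured libraries. The abundant chains were split: Col5a3 and Col3a1 passed as higher, while Col1a1, Col1a2, Col4a1 and Col4a2 did not pass. The libraries of both groups did not overlap, with all injured libraries higher, for 12 chains (background 25.4%), and with all injured libraries lower for 2 (background 26.0%). Without injured vehicle replicate 1, 19 chains passed as higher (background 26.1%) and 2 as lower (background 27.2%), with a median of 0.24. Without injured vehicle replicate 2 the median was 0.004.

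**Figure D1:**
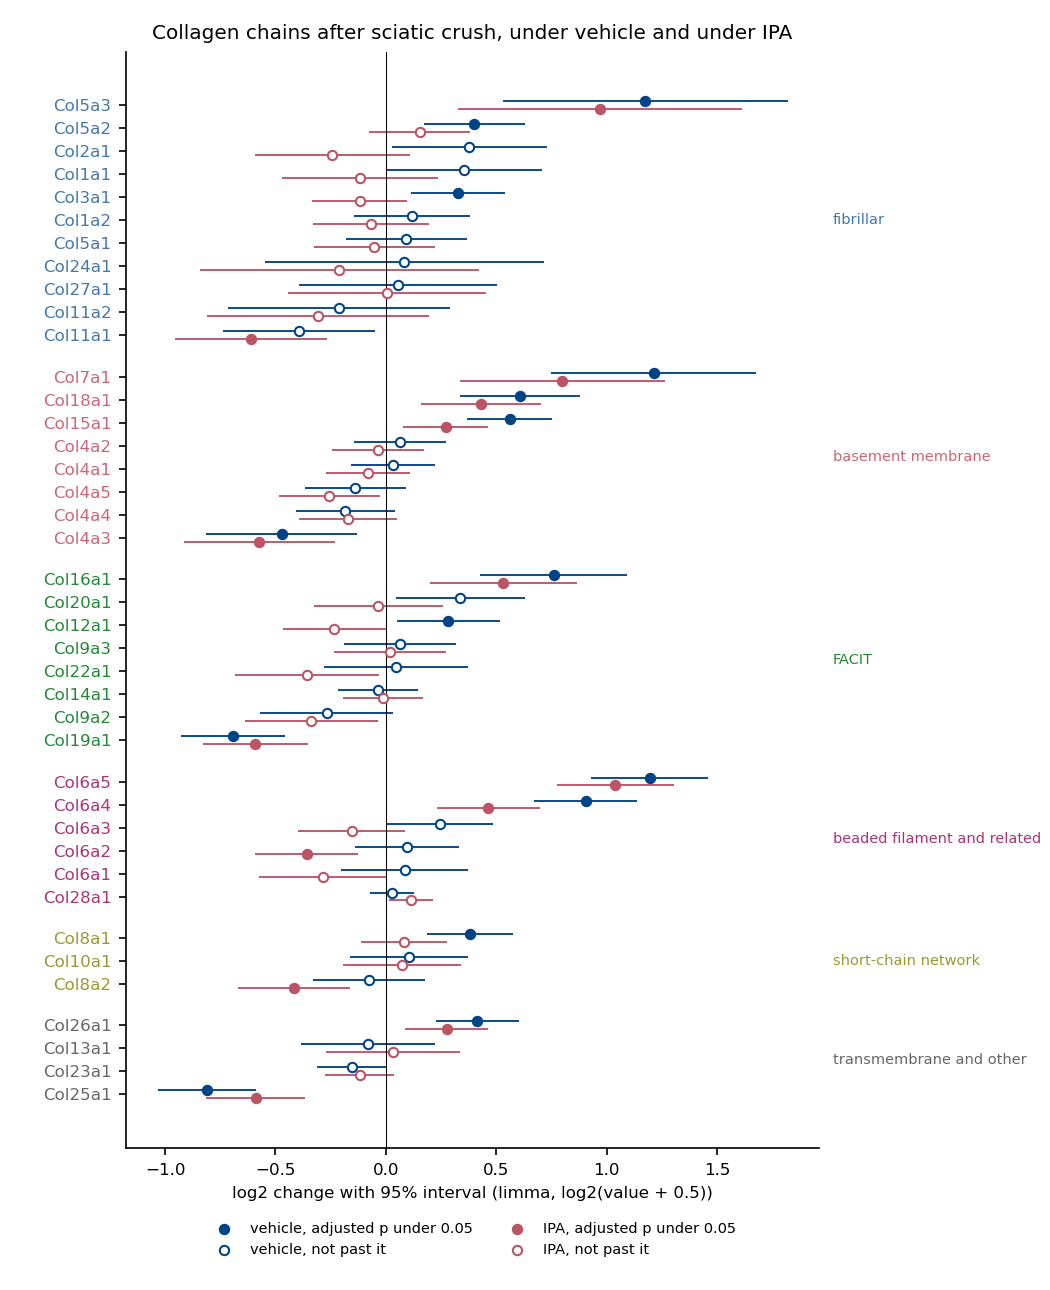
Change of the 40 tested collagen chains after sciatic crush (x axis, log2 change with its 95% interval from limma), under vehicle (blue) and under IPA (red), grouped by class. Filled points passed an adjusted p under 0.05: 12 rises and 3 falls under vehicle, and 8 rises and 6 falls under IPA.

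Counts by class stand against the same background of 23.6% of all tested genes higher and 24.4% lower. Among the fibrillar chains, 3 of 11 passed as higher and 0 as lower. Col5a3 (ENSMUSG00000004098, chromosome 9, 20770050 to 20815067, minus strand) codes for a type V chain that rat Schwann cells are known to make. Its values were 72.3, 79.8 and 68.5 in vehicle and 79.1, 229 and 253 in injured vehicle libraries. Injured vehicle replicate 1 lay inside the vehicle range, while the other injured libraries were far above it. The change was 1.17 ± 0.30 (adjusted p = 0.00528), and 1.71 ± 0.08 without that library. Col5a2, another type V chain, was 24.6, 28.1 and 25.2 in vehicle and 28.5, 39.9 and 35.5 in injured vehicle libraries, a change of 0.40 ± 0.11 (adjusted p = 0.00656). All injured libraries were higher, replicate 1 by a narrow margin. Col3a1, the type III chain, was 84.4, 97.1 and 109.6 in vehicle and 108, 130.3 and 126 in injured vehicle libraries. These ranges overlap slightly, and the change was 0.33 ± 0.10 (adjusted p = 0.0150). Its adjusted p was 0.0834 without vehicle replicate 1, 0.0619 without injured vehicle replicate 2 and 0.0533 without injured vehicle replicate 3.

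Type I collagen, the main fibril component, showed no call. Col1a1 was 106, 111 and 143 in vehicle and 116, 175 and 174 in injured vehicle libraries, a change of 0.36 (95% interval 0.002 to 0.71, adjusted p = 0.0899). The groups overlap at injured replicate 1, which lay among the vehicle libraries. Without that library the change was 0.55 ± 0.14 (adjusted p = 0.00419). Col1a2 changed by 0.12 (95% interval -0.15 to 0.38). Col5a1, the chain shared by most type V molecules, changed by 0.09 (-0.18 to 0.37). The cartilage-type chain Col11a1 was at -0.39 ± 0.16 (adjusted p = 0.0579) and its partner Col11a2 at -0.21 ± 0.23. Without injured vehicle replicate 1 Col11a1 was at -0.17 ± 0.12 and Col11a2 turned to 0.16 ± 0.14, neither passing. For Col24a1 and Col27a1, minor fibrillar chains, the intervals were wide, -0.55 to 0.71 and -0.39 to 0.50. Without injured vehicle replicate 1, Col5a1, Col24a1 and Col27a1 passed as higher (0.27 ± 0.10, 0.54 ± 0.17 and 0.36 ± 0.14).

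Among the basement membrane chains, 3 of 8 tested passed as higher and 1 as lower, and the type IV chains were not among the rises. Col7a1 (ENSMUSG00000025650, chromosome 9, 108953586 to 108984875, plus strand) forms the anchoring fibrils of skin. It was 3.237, 3.51 and 2.15 in vehicle and 4.79, 8.57 and 9.80 in injured vehicle libraries, with no overlap, a change of 1.21 ± 0.22 (adjusted p = 0.000393), or 1.502 ± 0.17 without injured vehicle replicate 1. Col18a1, the heparan sulfate collagen from which endostatin is cut, was 22.8, 23.5 and 27.4 in vehicle and 31.4, 45.4 and 37.1 in injured vehicle libraries (0.61 ± 0.13, adjusted p = 0.00128). Its relative Col15a1 was 34.2, 39.3 and 42.1 in vehicle and 51.6, 60.3 and 59.1 in injured vehicle libraries (0.56 ± 0.09, adjusted p = 0.000156). All injured libraries were above all vehicle libraries for both.

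The ubiquitous type IV chains did not pass. Col4a1 was 97.5, 109 and 116 in vehicle and 97.3, 127 and 107 in injured vehicle libraries, and the groups overlapped fully (change 0.03, 95% interval -0.16 to 0.22). Col4a2, which shares its start with Col4a1, changed by 0.06 (-0.15 to 0.27). Without injured vehicle replicate 1, Col4a2 passed at 0.19 ± 0.07 (adjusted p = 0.0389) and Col4a1 did not pass. The chains known from the kidney glomerulus, Col4a3, Col4a4 and Col4a5, were low. Col4a3 was 1.71, 1.46 and 0.976 in vehicle and 0.676, 0.799 and 1.07 in injured vehicle libraries, with overlap between the lowest vehicle and the highest injured library. It passed as lower (-0.47 ± 0.16, adjusted p = 0.0247). The call was lost without vehicle replicate 1 or 2 or without injured vehicle replicate 1 or 2 (adjusted p from 0.0656 to 0.118), and also with no filter (0.0683) or with only the 6 libraries compared (0.0543). Col4a4 was at -0.18 ± 0.10 and Col4a5 at -0.14 ± 0.11.

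Of the FACIT chains, 2 of 8 tested passed as higher and 1 as lower. Col16a1 (ENSMUSG00000040690, chromosome 4, 130047840 to 130099283, plus strand) was 35.7, 37.1 and 32.1 in vehicle and 42.0, 76.1 and 65.6 in injured vehicle libraries. All injured libraries were higher, replicate 1 least, and the change was 0.76 ± 0.15 (adjusted p = 0.00113), or 1.01 ± 0.08 without replicate 1. Col12a1, which lies on type I fibrils, was 20.7, 25.4 and 23.8 in vehicle and 26.1, 30.4 and 28.7 in injured vehicle libraries, a change of 0.28 ± 0.11 (adjusted p = 0.0455). That call was lost without vehicle replicate 1 or 3 or injured vehicle replicate 2 or 3 (adjusted p from 0.0662 to 0.190), with no filter (0.0991) and with quantile normalization (0.0546). Col19a1, known at synapses of the mouse brain, was 2.41, 2.54 and 1.99 in vehicle and 1.47, 1.18 and 1.07 in injured vehicle libraries. All injured libraries were lower (-0.69 ± 0.11, adjusted p = 0.000152). Col14a1, another chain of type I fibrils, stayed at -0.03 (95% interval -0.21 to 0.15).

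In the beaded filament group, 2 of 6 tested chains passed as higher and 0 as lower. Col6a5 (ENSMUSG00000091345, chromosome 9, 105856078 to 105960643, minus strand) is a long relative of Col6a3. It was 0.829, 0.721 and 0.563 in vehicle and 2.45, 2.23 and 2.07 in injured vehicle libraries, well separated, a change of 1.19 ± 0.12 (adjusted p = 2.76e-06). Replicate 1 was the highest of the injured vehicle libraries here. Col6a4 (ENSMUSG00000032572, chromosome 9, 105989454 to 106096783, minus strand) was 0.231, 0.133 and 0.132 in vehicle and 0.656, 0.781 and 0.795 in injured vehicle libraries. These rest on 7 to 12 reads and 33 to 57 reads a library. The change was 0.90 ± 0.11 (adjusted p = 1.19e-05) and, since the pseudocount damps so low a gene, 2.18 on recovered reads with edgeR. Col6a4 reached 0.5 only in injured libraries, so it entered the test because it was high after crush. Its place among the rises is therefore not independent of the filter, and a filter of 1 left it untested. Col6a1, Col6a2 and Col6a3, the classical type VI chains, were at 0.09 ± 0.13, 0.10 ± 0.11 and 0.24 ± 0.11 and did not pass, although Col6a3 passed without injured vehicle replicate 1 (0.35 ± 0.11). Col28a1 was 63.0, 66.0 and 62.0 in vehicle and 64.1, 68.4 and 62.6 in injured vehicle libraries, with nearly full overlap (95% interval of the change -0.07 to 0.13).

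Of the short-chain network formers, Col8a1, a vessel wall and corneal chain, was 8.65, 8.65 and 9.93 in vehicle and 11.66, 13.3 and 11.1 in injured vehicle libraries, all higher (0.38 ± 0.09, adjusted p = 0.00321). Its partner Col8a2 was at -0.08 ± 0.12, and Col10a1, a chain of growth plate cartilage, at 0.10 ± 0.12. Col10a1 lies inside the opposite-strand gene Nt5dc1, so its reads are uncertain. Of the 4 transmembrane and other chains tested, 1 passed as higher and 1 as lower. Col25a1 (ENSMUSG00000058897, chromosome 3, 130131501 to 130599877, plus strand) is a neuronal transmembrane collagen that motor axons of mice need to innervate muscle. It was 6.42, 5.88 and 6.21 in vehicle and 3.82, 2.80 and 3.35 in injured vehicle libraries, with a wide gap between the groups and a change of -0.81 ± 0.10 (adjusted p = 2.16e-05). Col26a1 was 3.45, 3.36 and 3.44 in vehicle and 4.44, 5.14 and 4.60 in injured vehicle libraries, all higher (0.41 ± 0.09, adjusted p = 0.00145). Col23a1, the transmembrane chain with the highest level of the class, was 39.1, 43.8 and 42.3 against 35.4, 40.2 and 36.8, overlapping, a change of -0.15 (95% interval -0.31 to 0.002).

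**Figure D2:**
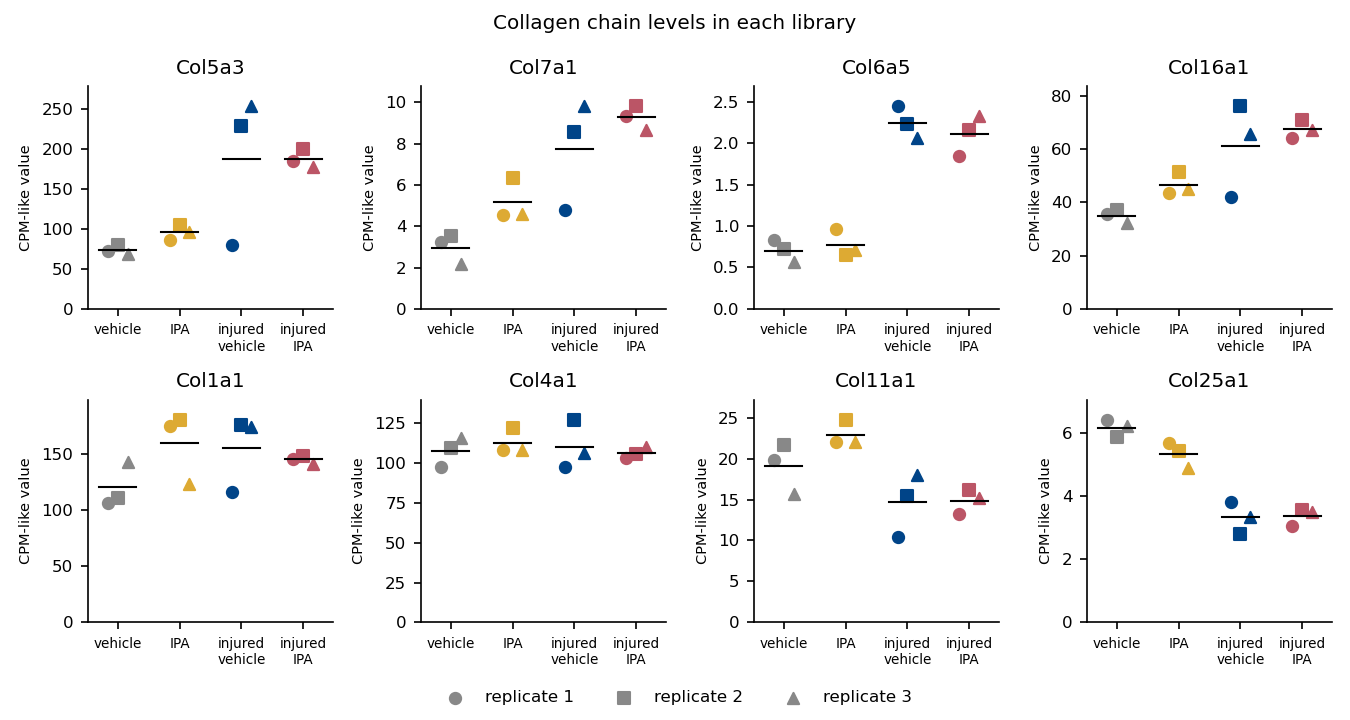
Deposited CPM-like value (y axis, from 0) of 8 collagen chains in each of the 12 libraries, by group (x axis); bars are group means and symbols the replicates. Injured vehicle replicate 1 lies at 79.1 for Col5a3 while the other injured libraries lie at 177 to 253, and Col25a1 lies at 2.80 to 3.82 in injured and 4.90 to 6.42 in uninjured libraries.

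The 4 chains below the filter were Col17a1, Col4a6, Col9a1 and Col6a6. Col17a1, the transmembrane collagen of hemidesmosomes, was 0.116, 0.0569 and 0.149 in vehicle against 0.199, 0.309 and 0.223 in injured vehicle libraries, and 0.205, 0.121 and 0.142 in IPA against 0.417, 0.524 and 0.291 in injured IPA libraries. Its injured libraries were higher within each treatment, apart by little under vehicle, on 3 to 37 reads a library. Col9a1, a cartilage FACIT chain, ranged from 0 to 0.189; the 0, in injured IPA replicate 3, allows a value of up to 0.0545 (3 reads, counting error only). Col4a6, which pairs with Col4a5, ranged from 0.104 to 0.268, and Col6a6 from 0.0331 to 0.190. Fitted with no filter, Col17a1 changed after crush by 0.29 ± 0.10 under vehicle (adjusted p = 0.0450) and 0.47 ± 0.10 under IPA (0.00416), and Col4a6 by 0.01 ± 0.06 and -0.26 ± 0.06 (0.998 and 0.00726), while Col9a1 and Col6a6 did not pass in either.

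Injured vehicle replicate 1 lay below both other replicates for 33 of the 40 tested chains and above both for 3. Its median log2 difference from the mean of replicates 2 and 3 was -0.28 over the chains, -0.39 over the 22 chains above 55% transcript GC and -0.19 over the 18 at or below it. The largest differences were in Col5a3 (-1.60), Col24a1 (-1.37), Col11a2 (-1.11) and Col27a1 (-0.92), and the chains above 0 included Col25a1, Col19a1 and Col6a5. Collagen transcripts are GC-rich, 45.9% to 62.9% with a median of 55.4%, against 49.8% over all tested genes. Over all tested genes the same difference had a median of 0.23 below 40% GC and -0.24 above 60%. Across the 40 chains Pearson's r with GC was -0.47 and Spearman's rho -0.51, given as a description, since the chains share the libraries. After each library's trend on GC content and length was removed, 16 chains passed as higher (background 27.0%) and 4 as lower (background 27.4%), and Col5a3 changed by 1.23 ± 0.25.

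**Figure D3:**
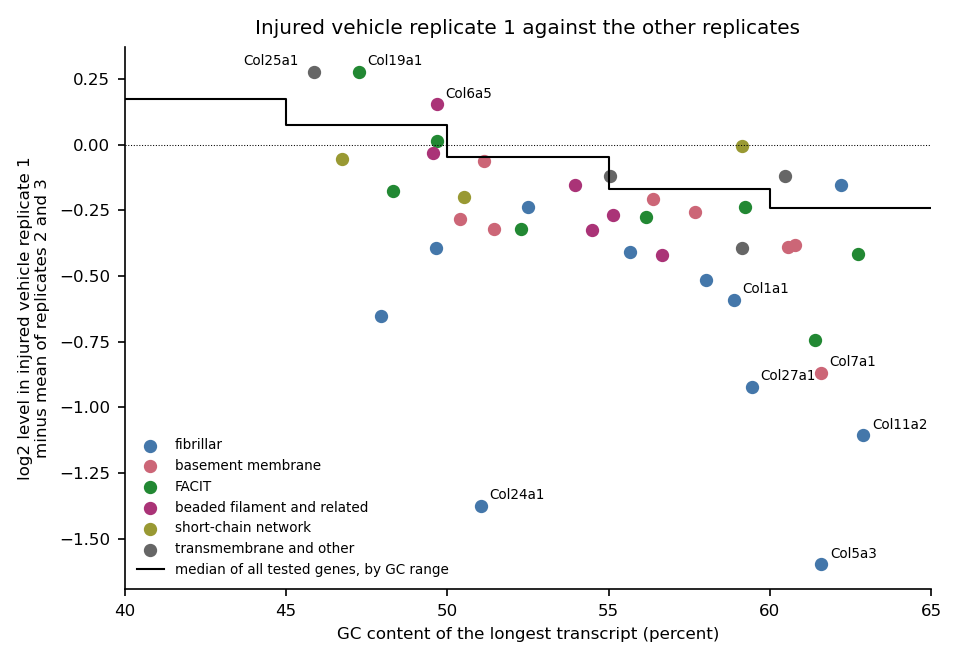
Log2 level of each tested collagen chain in injured vehicle replicate 1 minus the mean of replicates 2 and 3 (y axis) against GC content of its longest transcript (x axis, percent), coloured by class; the black steps are the median of all tested genes in each GC range. Of the 40 chains, 33 lie below both other replicates, and Col5a3 lies lowest at -1.60.

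The same comparison under IPA set other libraries against each other, although all 12 shared 1 estimate of the spread in the fit. Here 8 of 40 chains passed as higher (20.0%, background 21.2%) and 6 as lower (15.0%, background 22.5%), with a median change of -0.07 against -0.016 over all tested genes. That median moved to -0.02 without IPA replicate 2 and to -0.15 without IPA replicate 3. The 8 rises were Col6a5 (1.04 ± 0.12), Col5a3 (0.97 ± 0.30), Col7a1 (0.80 ± 0.22), Col16a1 (0.53 ± 0.15), Col6a4 (0.46 ± 0.11), Col18a1 (0.43 ± 0.13), Col26a1 (0.28 ± 0.09) and Col15a1 (0.27 ± 0.09). All 8 were also among the 12 rises under vehicle, and here too Col6a4 had passed the filter only through injured libraries. The falls were Col11a1 (-0.61 ± 0.16), Col19a1 (-0.59 ± 0.11), Col25a1 (-0.59 ± 0.10), Col4a3 (-0.57 ± 0.16), Col8a2 (-0.41 ± 0.12) and Col6a2 (-0.36 ± 0.11), of which Col19a1, Col25a1 and Col4a3 were the 3 falls under vehicle. No chain passed in opposite directions, and 22 of 40 passed in neither comparison. Libraries did not overlap, all injured higher, for 9 chains (background 27.2%), and all injured lower for 10 (background 30.8%).

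Col5a3 was 85.6, 105 and 95.9 in IPA and 184, 199.9 and 177 in injured IPA libraries, far apart and with no low library among the injured ones. Col7a1 was 4.55, 6.36 and 4.58 against 9.35, 9.81 and 8.65, also apart. Col6a5 was 0.961, 0.649 and 0.712 against 1.85, 2.15 and 2.33. Col6a4 was 0.299, 0.272 and 0.413 against 0.665, 0.652 and 0.600, again apart. Col16a1 was 43.4, 51.5 and 44.9 against 64.2, 70.9 and 67.3, and Col18a1 23.9, 31.3 and 25.6 against 34.4, 40.2 and 34.7, neither with overlap. Among the falls, Col11a1 was 22.0, 24.7 and 22.1 against 13.2, 16.1 and 15.2, Col25a1 5.69, 5.44 and 4.90 against 3.06, 3.57 and 3.51, and Col19a1 1.97, 2.19 and 1.98 against 1.28, 1.15 and 1.15. All injured libraries were lower for these 3. Col4a3 was 1.54, 1.87 and 1.40 against 0.743, 0.978 and 1.018, without the overlap seen under vehicle. Col8a2 was 8.33, 8.42 and 5.75 against 5.57, 5.43 and 5.29, with IPA replicate 3 close to the injured libraries. Col6a2 was 30.9, 39.6 and 27.6 against 25.1, 25.3 and 24.9.

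Several of these calls were lost when 1 library was left out, each then with a smaller change. Without IPA replicate 1, 4 chains passed as higher (2838 of all 15603 tested genes). Those lost were Col5a3 at 0.89 (adjusted p = 0.0597), Col15a1 at 0.22 (0.106), Col18a1 at 0.35 (0.0635) and Col26a1 at 0.27 (0.0583). Without injured IPA replicate 2, 5 chains passed as higher (2827 of all tested genes). Those lost were Col5a3 at 0.92 (adjusted p = 0.0549), Col15a1 at 0.23 (0.0960) and Col18a1 at 0.36 (0.0625). Col15a1 and Col26a1 also missed without IPA replicate 3, at 0.24 and 0.25 (adjusted p = 0.0902 and 0.0750), and Col26a1 without injured IPA replicate 1, at 0.21 (0.0983). Among the falls, Col8a2 missed at -0.33 without IPA replicate 1 (0.0594) or 2 (0.0588), and Col6a2 at -0.21 without IPA replicate 2 (0.0758). With no filter, Col5a3, Col15a1 and Col26a1 kept their changes of 0.97, 0.27 and 0.28 and missed (0.0578, 0.0594 and 0.0533). Under vehicle, 5 chains in place of 3 passed as lower without vehicle replicate 3 (3648 of all tested genes). After crush under IPA, the type I chains and the chains Col4a1 and Col4a2 had small changes and did not pass. These were Col1a1 -0.12 (95% interval -0.47 to 0.24), Col1a2 -0.07 (-0.33 to 0.19), Col4a1 -0.08 (-0.27 to 0.11) and Col4a2 -0.03 (-0.24 to 0.17).

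The next comparison asked what IPA changed with the nerve intact. No chain passed: limma, edgeR and DESeq2 each called 0 of 40. Over all 15603 tested genes limma and edgeR called 0 (background 0%), and DESeq2 called 1 higher and 2 lower. At an unadjusted p under 0.05 there were 7 of 40, against 12.2% of all tested genes, and the smallest adjusted p was 0.408. Still, 33 of 40 chains had a change above 0, with a median of 0.16, where 52.9% of all tested genes did, with a median of 0.009. All 11 fibrillar chains were above 0 (median 0.27), as were 7 of 8 basement membrane, 6 of 8 FACIT, 5 of 6 beaded filament and 3 of 3 short-chain network chains, the last with a median of 0.02. Of the transmembrane and other chains 1 of 4 was above 0 (median -0.05). These counts were not tested, since the chains share libraries. Leaving out any 1 of the 6 libraries left 30 to 34 of 40 above 0 and a median of 0.09 (without IPA replicate 2) to 0.22 (without IPA replicate 3).

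Col7a1 had the largest difference, 4.55, 6.36 and 4.58 in IPA against 3.237, 3.51 and 2.15 in vehicle libraries (0.72, 95% interval 0.25 to 1.18). All IPA libraries were above all vehicle libraries. The IPA values of Col16a1, given above, were likewise all above its vehicle values (0.41, 0.07 to 0.74), as were those of Col6a4 (0.31, 0.08 to 0.55). Col1a1 was 175, 180.3 and 123 in IPA against 106, 111 and 143 in vehicle libraries, where IPA replicate 3 lay inside the vehicle range (0.40, 0.05 to 0.75). Col2a1, a cartilage chain, was 2.63, 2.55 and 1.65 against 1.37, 1.71 and 1.32, overlapping by the same IPA library (0.48, 0.13 to 0.84). Col28a1 went the other way, 56.1, 58.5 and 58.0 against 63.0, 66.0 and 62.0, with no overlap (-0.15, -0.24 to -0.05). In all, 10 chains had every IPA library above every vehicle library (background 12.7%) and 2 had every one below (background 12.5%). The slope of level on transcript GC content also differed between these groups, 0.012 to 0.072 per 10% GC in IPA and -0.122 to 0.003 in vehicle libraries. With each library's GC and length trend removed, 32 of 40 chains were above 0, with a median of 0.14, against 54.0% of all tested genes.

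After injury, IPA and vehicle were compared in the same way, with 0 of 40 chains called by limma, edgeR or DESeq2. Over all 15603 tested genes limma and edgeR called 0 (background 0%), and DESeq2 called 9 higher and 6 lower. In limma 5 chains had an unadjusted p under 0.05 (8.06% of all tested genes), and the smallest adjusted p was 0.578. The median change was -0.04, and 15 of 40 chains were above 0, where all tested genes had a median of -0.002 and 49.1% above 0. Without injured vehicle replicate 1, 4 of 40 were above 0, with a median of -0.15; without injured vehicle replicate 2, 20 were, with a median of 0.01, and without injured IPA replicate 3, 20 were, with a median of -0.01. All injured IPA libraries were below all injured vehicle libraries for 5 chains (background 5.58%) and above them for 0 (background 5.86%). Those 5 were Col12a1, Col3a1, Col6a2, Col8a1 and Col8a2. Col12a1 was 20.9, 20.3 and 20.8 in injured IPA against 26.1, 30.4 and 28.7 in injured vehicle libraries (-0.45, 95% interval -0.68 to -0.21). Col8a2 was 5.57, 5.43 and 5.29 against 6.98, 6.90 and 7.10 (-0.34, -0.59 to -0.08), with little spread in either group. Col3a1 was 102, 105 and 100.3 against 108, 130.3 and 126 (-0.24, -0.46 to -0.03), and Col8a1 10.0, 10.3 and 10.5 against 11.66, 13.3 and 11.1 (-0.21, -0.41 to -0.02). Col6a2 was 25.1, 25.3 and 24.9 against 26.6, 31.3 and 32.9 (-0.26, -0.49 to -0.03), and its partner Col6a1 20.6, 23.2 and 23.0 against 21.5, 30.0 and 28.1 with overlap (-0.24, -0.53 to 0.05).

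**Figure D4:**
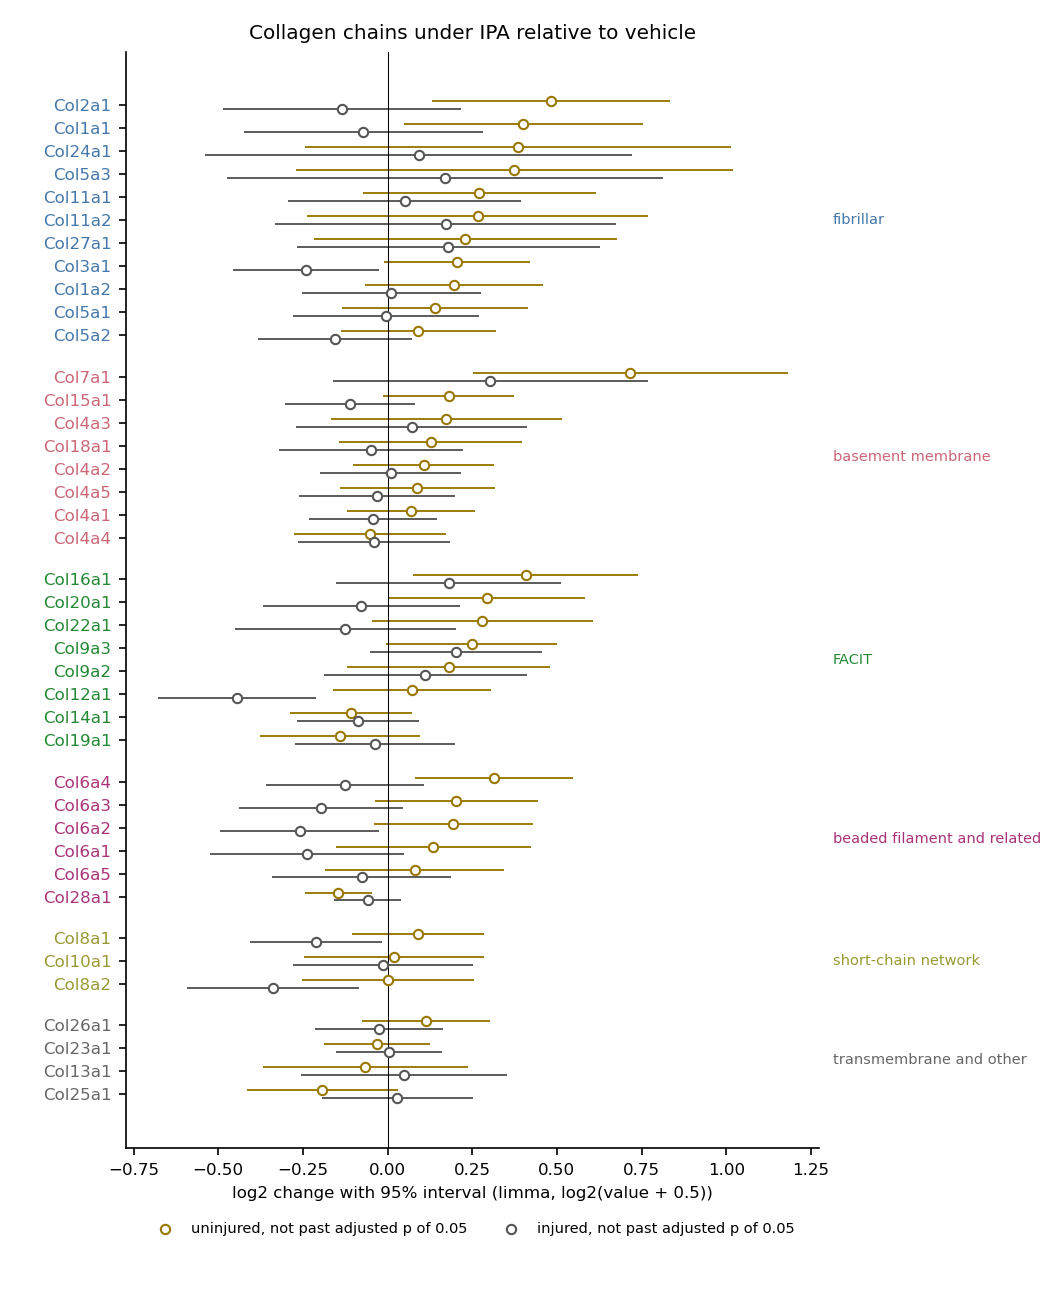
Difference between IPA and vehicle for the 40 tested collagen chains (x axis, log2 change with its 95% interval from limma), in uninjured (gold) and injured (grey) ganglia, grouped by class. No point passed an adjusted p under 0.05; 33 of 40 uninjured points and 15 of 40 injured points lie above 0.

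The interaction asked whether the injury change differed between IPA and vehicle, and it uses all the libraries of the comparisons above. It called 0 of 40 chains with limma, edgeR and DESeq2. Over all 15603 tested genes limma and edgeR called 0 (background 0%), and DESeq2 called 0 higher and 3 lower. In limma 8 chains had an unadjusted p under 0.05 (2.10% of all tested genes), with a smallest adjusted p of 1.00. The difference was below 0 for 33 of 40 chains and above it for 7, with a median of -0.18, where all tested genes had a median of -0.006 and 47.6% above 0. Leaving out 1 library left 4 to 13 above 0, with medians from -0.33 (without injured vehicle replicate 1) to -0.09 (without injured vehicle replicate 2). Chains called under one treatment alone were therefore not shown to differ between treatments. For Col12a1 the difference was -0.52 (95% interval -0.85 to -0.19), for Col3a1 -0.45 (-0.75 to -0.14), for Col6a2 -0.45 (-0.79 to -0.12), for Col6a4 -0.44 (-0.77 to -0.11), for Col2a1 -0.62 (-1.12 to -0.12) and for Col6a3 -0.40 (-0.74 to -0.06). For Col5a3, the largest fibrillar rise, it was -0.21 ± 0.42, and without injured vehicle replicate 1 it was -0.74 ± 0.11 (adjusted p = 0.158), not passing. Without that library, 10.9% of all tested genes had an unadjusted p under 0.05. Col5a3 was not alone among the chains there, of which 4 of 40 lay above 0. Col1a1 was at -0.67 ± 0.19, Col3a1 at -0.53 ± 0.13 and Col16a1 at -0.47 ± 0.11, each with a limma adjusted p of 0.310. In simulated counts, where only genes with a mean value of at least 1 were changed, this test recovered 12% of genes changed 1.25-fold. It recovered 66% of those changed 1.5-fold, where the injury comparison under vehicle recovered 34% and 90%.

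Ratios of chains that share a molecule, per length of transcript, varied by pair. Under vehicle, Col5a3 over Col5a1 was 4.12 to 4.90 without and 5.91 to 13.6 after injury. Under IPA it was 5.07 to 6.04 without and 10.8 to 11.1 after injury, so the injured libraries were above the uninjured ones within each treatment. Col4a1 over Col4a2 stayed between 1.44 and 1.64 in all libraries. Col6a1 over Col6a2 stayed between 0.954 and 1.15. Col6a3 over Col6a2 was 0.206 to 0.222 in vehicle and 0.225 to 0.257 in injured vehicle libraries. Under IPA it overlapped, at 0.205 to 0.231 without and 0.225 to 0.260 after injury. Col5a2 over Col5a1 was 1.40 to 1.55 in vehicle and 1.77 to 1.97 in injured vehicle libraries. Under IPA that ratio overlapped too, at 1.34 to 1.56 and 1.52 to 1.89. Col8a2 over Col8a1 went from 0.938 to 0.977 without injury to 0.613 to 0.757 after it under vehicle, and from 0.795 to 0.963 down to 0.596 to 0.656 under IPA, without overlap within either treatment. Col1a1 over Col1a2 was 0.482 to 0.518 in vehicle and 0.532 to 0.634 in the other groups. These ratios are given without a test.

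**Figure D5:**
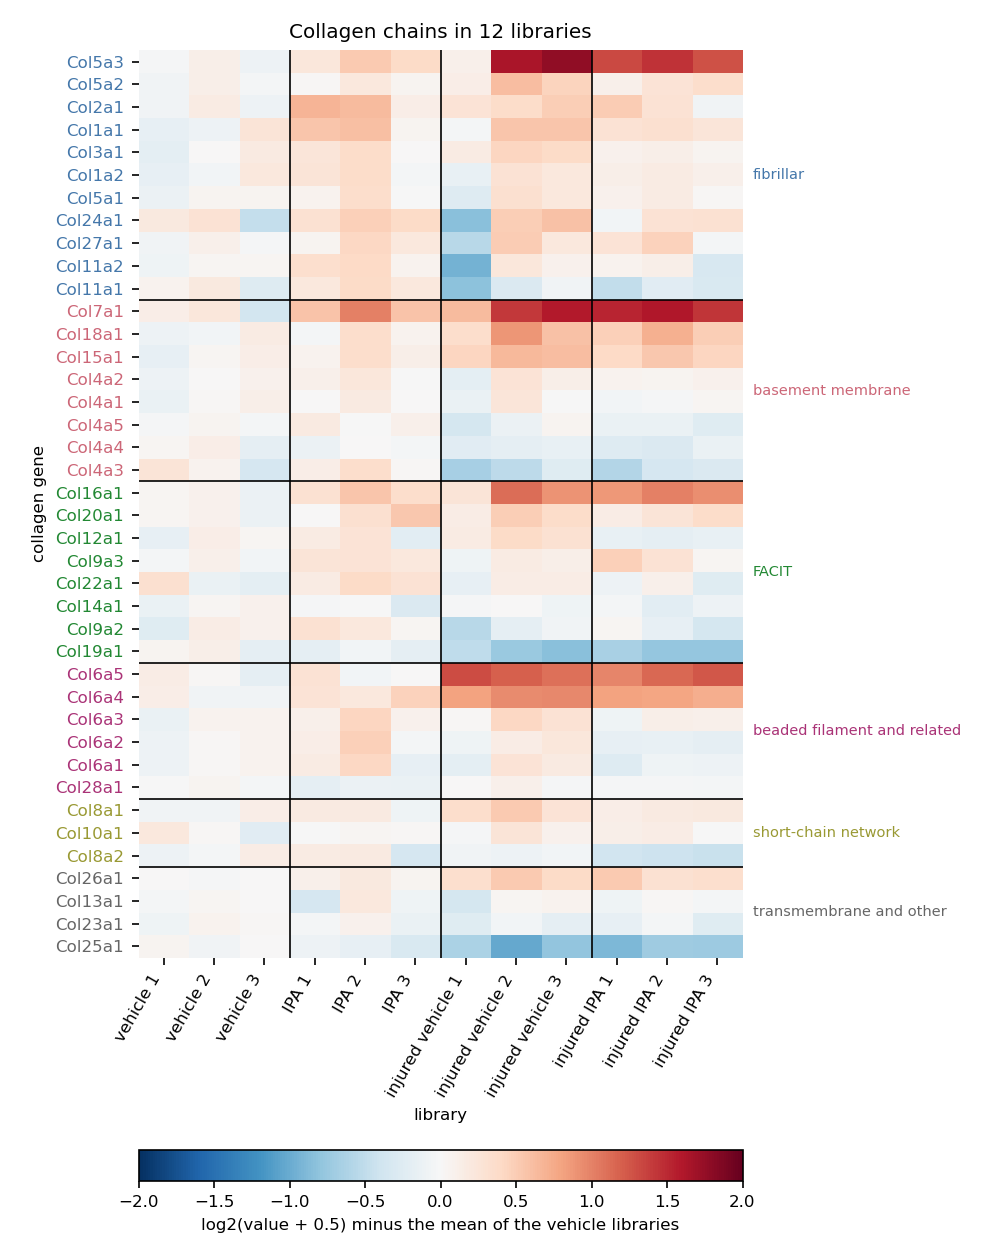
Log2(value + 0.5) of the 40 tested collagen chains (y axis, by class) in the 12 libraries (x axis), minus the mean of the vehicle libraries; red is higher and blue lower. Col5a3, Col7a1, Col6a5 and Col16a1 are red in injured libraries, with injured vehicle replicate 1 paler for Col5a3, Col7a1 and Col16a1, and Col25a1 and Col19a1 are blue.

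The length of the glycine repeat set the fibrillar chains apart, while the other classes overlapped. The longest run of glycine codons at that spacing was 337 to 344 repeats in 9 of the 11 fibrillar chains, 216 in Col24a1 and 217 in Col27a1. It was 39 to 66 in the type IV chains and 75 in Col7a1, whose helices are known to be interrupted. The FACIT chains ranged from 32 to 113. Col6a1 and Col6a2 had 87, Col6a3 to Col6a6 37 to 45 and Col28a1 28. Col8a1, Col8a2 and Col10a1 had 60 to 61, and Col26a1 23.

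Genes that process, bind or degrade collagens were taken as 6 lists, whose counts after crush under vehicle are read against the background of 23.6% of all tested genes higher and 24.4% lower. Of 21 genes for chain modification and folding, 5 rose and 5 fell, near that background in both directions. Plod3, a lysyl hydroxylase and glycosyltransferase, went from 37.8 ± 3.69 to 71.3 ± 8.81 (log2 change 0.91 ± 0.09, adjusted p = 1.43e-06). Mia3, which loads procollagen into transport vesicles, rose by 0.36 ± 0.04 and P4hb, the prolyl hydroxylase subunit, by 0.29 ± 0.05, while the galactosyltransferase Colgalt2 fell by 0.38 on the log2 scale. Of 12 genes tested for propeptide cleavage and cross-linking, 5 rose and 3 fell. The lysyl oxidase Loxl2 rose from 2.40 ± 0.42 to 12.8 ± 0.33 (2.21 ± 0.12, adjusted p = 3.20e-09). The procollagen C-proteinase Bmp1 rose by 1.07 ± 0.15 and its enhancer Pcolce by 0.66 ± 0.12, while the related proteinase Tll1 changed by -0.85 ± 0.08.

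Of 14 fibril-associated genes, 5 rose and 1 fell. Fibronectin (Fn1) rose by 0.66 ± 0.11, lumican (Lum) by 0.51 ± 0.11 and biglycan (Bgn) by 0.34 ± 0.09, and Comp, a cartilage and tendon protein, went from 19.2 ± 1.88 to 6.33 ± 1.55 (-1.55 ± 0.12, adjusted p = 2.46e-07). Among 10 collagen receptors tested, 3 rose and 1 fell: the integrin subunit Itgb1 (0.77 ± 0.05), the tyrosine kinase Ddr2 (0.76 ± 0.08) and the inhibitory receptor Lair1 (0.64 ± 0.11) rose, and Itga11 was at -0.39 ± 0.14. Of 13 genes for collagen degradation tested, 4 rose and 2 fell. The membrane metalloproteinase Mmp16 rose from 6.98 ± 0.88 to 49.9 ± 3.82 (2.76 ± 0.08, adjusted p = 1.27e-11). The genes of metalloproteinase inhibitors split, with Timp1 at 2.85 ± 0.15 and Timp2 at -0.43 ± 0.05. The lysosomal protease Ctsb rose by 0.28 ± 0.04.

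Of 14 genes of the TGF-beta axis, which is known to induce fibrillar collagens, 6 rose and 4 fell. Ltbp1, which binds latent TGF-beta in the matrix, rose from 5.14 ± 0.78 to 12.1 ± 0.39 (1.17 ± 0.09, adjusted p = 1.87e-07), the ligand Tgfb1 by 0.91 ± 0.14 and the receptor Tgfbr2 by 0.36 ± 0.07. Under IPA the rises and falls in the 6 lists, in the same order, were 4 and 4, 5 and 3, 3 and 3, 3 and 1, 5 and 2, and 6 and 5, against a background of 21.2% higher and 22.5% lower. In the comparisons of IPA with vehicle 0 of these 84 genes passed limma, and the smallest adjusted p was 0.400 without and 0.494 after injury.

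Markers of other cell types moved beside these results, and their part in them was not tested. Their counts after crush under vehicle stand against the same background of 23.6% of all tested genes higher and 24.4% lower. Of 8 fibroblast markers, 4 rose and 1 fell after crush under vehicle, and their summed value was 393 to 428 before and 471 to 516 after crush under vehicle, and 361 to 411 before and 396 to 512 after crush under IPA. Lum and Dcn belong to that list and to the fibril-associated one. All 6 macrophage markers rose, from sums of 25.0 to 28.5 in vehicle to 83.2 to 84.2 in injured vehicle libraries. Of 8 perineurial and meningeal markers 1 rose and 0 fell (190.2 to 301 against 297 to 376), and of 6 endothelial markers 1 rose and 0 fell (63.0 to 68.0 against 70.7 to 80.6). Of 6 pericyte and smooth muscle markers 0 rose and 2 fell (177 to 185 against 143 to 169). Rgs5 held most of that sum, with means of 115.7 and 88.5, and 4 of the 6 markers had a change above 0. Myelinating Schwann cell markers had 0 calls among 6, satellite glia 2 rises among 6, and sensory neurons 2 rises and 4 falls among 8. For bone and cartilage, 4 of 10 markers were tested and 2 fell (47.1 to 52.1 against 31.8 to 36.1), with up to 4 of the 10 at 0 in a library. Most of that drop lay in Hapln1, with means of 26.9 and 11.6, while Cnmd had means of 15.4 and 16.1. For tendon, 2 of 4 were tested and both fell (15.0 to 17.8 against 9.49 to 10.1). The 6 skeletal muscle markers had 0 calls but spread widely, from 62.8 to 103 up to 80.9 to 249.5 after crush under vehicle, and from 31.1 to 75.2 up to 41.2 to 246 under IPA.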

How the data were processed

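The file that the authors deposited lists 44345 genes and is labelled FPKM, but its values act like CPM, each gene's reads divided by a constant of the library. In each library 100% of values divided by that library's smallest step gave whole numbers (tolerance 1e-06), so whole reads could be recovered. Per the submitters' processing notes, which give no order of steps, the tools were FastQC 0.10.1, R 3.5.0, limma 3.38.3, STAR 2.7.0 and edgeR 3.24.3 on mm10. How reads were counted, by strand or not, is not given in the sources used here, nor is the annotation.

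All 12 libraries entered 1 limma-trend fit (limma 3.58.1, R 4.3.3) on log2(value + 0.5) of the 15603 genes at 0.5 or more in at least 3 libraries, with 8 residual degrees of freedom and two-sided tests. P-values were adjusted by Benjamini-Hochberg over all genes tested. The design had assumed FPKM, and its test was kept. Per the labels' protocols, each replicate is its own pool of mice. Gene coordinates, transcript length, GC content and codons come from GENCODE M21 (GRCm38). Length and GC content are those of the longest transcript. Codons are those of the longest coding sequence of the gene that starts with ATG, whichever transcript holds it. The collagen chains and gene lists were chosen with earlier results of these data known. Chains named in full were the 6 largest rises and falls that passed in each injury comparison, the 2 highest per class, the 6 smallest p in each IPA comparison and the interaction, and the head-to-head type IV pairs; other chains are given as counts, ranges or intervals. Of each list, up to 4 genes with the smallest p under vehicle were named. One gene that this rule names is not reported here.

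Alternatives were quantile normalization, median-of-ratios scaling, pseudocounts of 0.1 and 1, a filter of 1 or none, a block for the replicate number, only the libraries compared, removal of GC and length trends, edgeR 4.0.16 and DESeq2 1.42.0 on recovered reads, and each library left out. The fit was tested on simulated counts with 50 genes changed at each fold among 15603, drawn from genes with a mean value of at least 1. It recovered 84% of genes changed 1.5-fold for IPA without injury and 86% after injury.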

Additional observations from a re-analysis of the deposited data

How the results depend on the processing

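No collagen chain that passed reversed its direction under any alternative. In each injury comparison, only the chains called in the main fit were followed one by one. In the IPA comparisons and the interaction, the 6 chains with the smallest p were followed, none of them called. Of these values, 794 kept their side of the threshold and 31 lost it, all 31 in the injury comparisons. Calls gained by other chains are not in this tally. After crush under vehicle, leaving out 1 library gave 10 to 19 rises and 2 to 5 falls in place of 12 and 3. Over all 15603 tested genes the same fits gave 3080 to 4080 rises and 3219 to 4240 falls. The 19 rises came without injured vehicle replicate 1 and the 5 falls without vehicle replicate 3. Quantile normalization also gave 5 falls, where it gave 4298 falls over all 15603 tested genes. Under IPA, leaving out 1 library gave 4 to 8 rises and 4 to 8 falls in place of 8 and 6, with 4 rises without IPA replicate 1 and 5 without injured IPA replicate 2. Over all tested genes these fits gave 2738 to 3081 rises and 2868 to 3445 falls. Comparisons of IPA with vehicle and the interaction gave 0 calls among the chains in all of these. The replicate number does not pair the pools by the labels, and same-numbered libraries of different groups deviated from their group means with correlations from -0.25 to 0.29. With the replicate block, 14 chains rose and 5 fell under vehicle, and 8 rose and 6 fell under IPA. Over all tested genes that fit gave 3549 rises and 3661 falls under vehicle, and 3156 and 3359 under IPA. edgeR gave 12 and 3 chains under vehicle and 9 and 6 under IPA, and DESeq2 12 and 4 and 9 and 6. Over all tested genes edgeR gave 3810 and 3683 under vehicle and 3576 and 3360 under IPA. DESeq2 gave 3749 and 3796, and 3629 and 3407. The cause of these shifts was not tested. Reads limit the lowest chains: Col6a4 rested on 7 to 57 reads a library. The simulated injury comparison under vehicle recovered 34% of genes changed 1.25-fold. Only genes with a mean value of at least 1 were changed there, so the simulation does not cover chains as low as Col6a4.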
